A study of Mus musculus with 64 samples.

Results

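Oligodendrocytes wrap axons in myelin, and the 30 genes described here are used by this lineage at different stages, from dividing precursors to cells that maintain a finished sheath. The members were fixed by gene name, and all 30 were found among the 46785 genes of the transcript tables, with 125 of the 112714 listed transcripts. FPKM, a count of fragments scaled to transcript length and to all mapped fragments of the library, were summed over the transcripts of a gene in each library. The members were divided by role into 20 genes of mature myelin, 4 of committed or newly formed oligodendrocytes (Gpr17, Enpp6, Bcas1 and Nkx2-2), 2 of precursors (Pdgfra and Cspg4) and 5 lineage transcription factors (Olig1, Olig2, Sox10, Myrf and Nkx2-2, the last in 2 lists).

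RNA was sequenced in 64 libraries from the nucleus accumbens (NAc) and the prefrontal cortex (PFCx) of adult male C57BL/6N mice aged 8 to 10 weeks, 32 libraries per tissue. All mice received a single intraperitoneal injection of 10 ml per kg and were killed 2 h later, and no group was left without an injection. The drugs were haloperidol at 1 mg/kg and risperidone at 0.5 mg/kg, which are antipsychotics, methamphetamine at 2 mg/kg, a psychostimulant, mianserin at 20 mg/kg and venlafaxine at 16 mg/kg, which are antidepressants, and ketamine at 20 mg/kg, an anaesthetic with antidepressant action. Haloperidol and risperidone were dissolved with HCl added to the saline and the other drugs in saline alone. Each drug had 4 libraries per tissue and saline had 8, which the labels divide into saline I and saline II with 4 each. The labels give no such division for the drugs. Here a drug was placed with saline I (sample set I: haloperidol, risperidone and methamphetamine) or saline II (set II: mianserin, venlafaxine and ketamine) by the number of transcripts that its NAc libraries listed above 0. The tissue was dissected with needles from slices, so a sample holds every cell type of the region together with any adjoining white matter that was taken. In such bulk samples fewer oligodendrocytes and less RNA per oligodendrocyte cannot be told apart. Whether a mouse gave both tissues is not in the labels.

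The depth, estimated from the ratio of coverage to FPKM, ranged from 1.52 to 3.26 gigabases per library. In the NAc, sample set I listed 85287 to 87827 transcripts above 0 and set II 107099 to 110556, with no overlap, whereas the PFCx listed 108556 to 110852. The NAc libraries of both sets also differed in the summed FPKM of genes of cortical projection neurons, which was 48.6 to 66.6 in saline I and 20.9 to 43.1 in saline II. Each drug is therefore given against all 8 saline libraries of its tissue and against the 4 of its own set. In the PFCx the number of listed transcripts did not separate the sets (108878 to 110852 in set I, 108556 to 110620 in set II). The set of a drug in the PFCx was thus carried over from the NAc. Genes that mark the NAc (7 of 7) were higher in the NAc and genes that mark the PFCx (6 of 6) were lower there in saline, as the tissue labels state.

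Myelin is a stack of compacted membrane. Mbp encodes myelin basic protein, which holds the cytoplasmic faces of the sheath together, Mobp a small basic protein with a related place, and Mog and Mag adhesion proteins of the outer and the inner surface. Precursors carry the receptor for platelet-derived growth factor (Pdgfra) and the proteoglycan NG2 (Cspg4), Olig1, Olig2, Sox10 and Nkx2-2 act through the lineage, and Myrf switches on myelin genes in differentiating cells.

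The region before the start of the gene is shown for 3 mature myelin genes (Cnp, Mag and Mobp), which were all higher in the NAc, and for the precursor gene Pdgfra, which was not. The sequences are from RefSeq on GRCm38.p6, written 5′ to 3′ on the strand of the gene and ending before the first annotated exon. Capitals mark ACAAAG or its reverse complement CTTTGT, the core bound by SOX proteins, CTGGCAC or GTGCCAG, a site of Myrf, and CATCTG or CAGATG, a site of the kind bound by Olig2. The windows are chr11:100574689-100574903 (+ strand) for Cnp, chr7:30914874-30915113 (- strand) for Mag, chr9:120149492-120149706 (+ strand) for Mobp and chr5:75152001-75152250 (+ strand) for Pdgfra.
Cnp: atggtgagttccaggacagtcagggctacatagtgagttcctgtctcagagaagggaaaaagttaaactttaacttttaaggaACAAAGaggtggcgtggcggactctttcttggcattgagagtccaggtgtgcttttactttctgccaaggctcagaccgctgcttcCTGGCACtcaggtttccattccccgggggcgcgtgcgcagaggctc
Mag: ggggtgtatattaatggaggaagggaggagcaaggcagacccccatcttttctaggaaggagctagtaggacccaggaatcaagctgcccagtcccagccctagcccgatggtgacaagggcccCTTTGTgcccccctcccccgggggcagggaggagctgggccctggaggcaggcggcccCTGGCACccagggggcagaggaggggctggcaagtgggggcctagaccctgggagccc
Mobp: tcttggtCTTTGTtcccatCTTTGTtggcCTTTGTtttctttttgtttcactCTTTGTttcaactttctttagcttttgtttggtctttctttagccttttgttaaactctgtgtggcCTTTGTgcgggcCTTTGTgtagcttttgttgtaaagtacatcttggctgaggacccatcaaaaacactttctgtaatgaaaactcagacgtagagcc
Pdgfra: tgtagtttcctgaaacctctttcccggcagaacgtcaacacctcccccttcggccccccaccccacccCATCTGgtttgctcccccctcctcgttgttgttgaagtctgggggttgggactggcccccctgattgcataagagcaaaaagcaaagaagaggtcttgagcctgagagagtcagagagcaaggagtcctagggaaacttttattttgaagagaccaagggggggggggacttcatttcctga
The windows shown are ones that held a match. Those of Cnp and Mag each held 1 SOX core and 1 CTGGCAC, that of Mobp 6 SOX cores, and that of Pdgfra 1 CATCTG and no SOX core or CTGGCAC. Another Mag window (chr7:30914328-30914571) held none of these letters. Neither did the windows of Cldn11, Mal, Mog, Ermn and Ugt8a, which were also higher in the NAc. CATCTG or CAGATG was also in windows of the mature genes Aspa, Opalin, Ppp1r14a and Qdpr. A RefSeq promoter was found for 20 of the 30 members. Of these 20, 5 had a SOX core in a window, 2 had CTGGCAC, 6 had CATCTG and 1 had CAGCTG. Among all 32851 promoter windows of 250 bases, searched on both strands, 16.5% held a SOX core, 4.19% CTGGCAC, 14.4% CATCTG and 13.0% CAGCTG. The windows of members were shorter where an annotated exon lay in them. A match describes these letters and is not a measured binding site.

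In saline, Mbp was the member with the highest level in both tissues, and its lowest library lay above the highest library of Mobp, the next in order. In the NAc, Mobp, Cnp, Trf (transferrin, which carries iron) and Mag followed with overlapping ranges, and the order from Mobp down to Gpr37 held no further gap between neighbours. The lowest Gpr37 library (5.77) lay above the highest Ermn library (4.75). In the PFCx no neighbours below Mbp were apart. The lowest means were those of Nkx2-2 in the NAc (0.732 ± 0.139, SD, n = 8) and Ppp1r14a in the PFCx (0.459 ± 0.256, SD, n = 8).

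**Figure D1:**
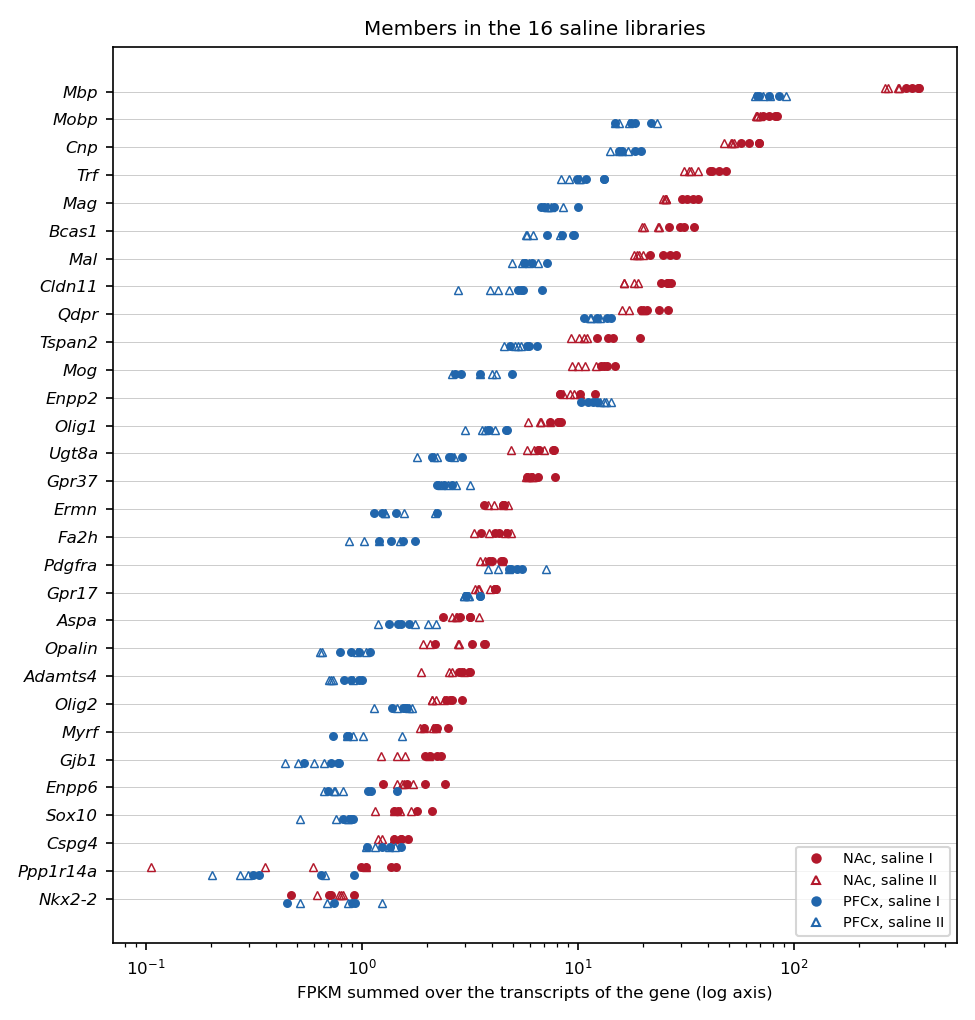
FPKM of each of the 30 members (rows) in the 16 saline libraries on a log axis, with filled circles for saline I, open triangles for saline II and a colour for each tissue. Mbp lies at 266 to 379 in the NAc and at 66.0 to 92.0 in the PFCx, and the rows of 7 members overlap between the tissues (Ppp1r14a, Pdgfra, Cspg4, Gpr17, Enpp6, Nkx2-2 and Enpp2).

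The tissue comparison asked which stages of the lineage differed between the NAc and the PFCx without a drug. Genes of mature myelin were higher in the NAc, up to a ratio of 4.44 for Cldn11. Lineage factors other than Nkx2-2 were higher with ratios of 1.61 to 2.23, and the precursor genes had ratios of 0.799 (Pdgfra) and 1.12 (Cspg4). With limma on log2(FPKM + 1) and Benjamini-Hochberg adjustment over 37034 genes, 26 members were higher in the NAc, 2 were lower and 2 did not pass 0.05. Of all genes tested, 8.89% were higher and 36% lower. The median difference of the members was 1.01 on the log2 scale against -0.10 over all genes tested. The NAc saline I libraries listed 29069 to 30201 genes above 0, fewer than the 37034 tested. The values over all genes therefore include genes at 0 in that set, and the part of these genes was not tested. In 23 members every NAc library lay above every PFCx library, which held for 2.83% of all genes, and in 12 members the ratio of the means was at least 3.

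Mbp (chr18:82475146-82585637, GRCm38) measured 266 to 379 with a median of 321 in the NAc and 66.0 to 92.0 with a median of 74.4 in the PFCx. The tissues did not overlap, the ratio of the means was 4.27, and the log2 difference was 2.08 ± 0.07 (SE, n = 8 per tissue, adjusted p = 1.96e-11). Cnp (chr11:100574904-100591729), an enzyme of the uncompacted myelin cytoplasm, measured 47.7 to 69.4 with a median of 54.9 in the NAc and 14.1 to 19.7 with a median of 16.1 in the PFCx. Its ratio was 3.48 (log2 difference 1.73 ± 0.06, SE, adjusted p = 2.22e-11). Trf measured 31.1 to 48.4 in the NAc and 8.38 to 13.3 in the PFCx, a ratio of 3.63 (1.77 ± 0.06, SE, adjusted p = 3.94e-11). Mal (chr2:127633226-127656695), a membrane protein that sorts myelin components, measured 18.3 to 28.4 in the NAc and 4.94 to 7.18 in the PFCx, a ratio of 3.74 (1.73 ± 0.07, SE, adjusted p = 4.94e-11). These are the 4 members with the lowest p, and none of them overlapped between the tissues.

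The adhesion and channel proteins of the sheath moved the same way. Cldn11 (chr3:31149920-31164324), which seals the layers of the sheath with tight junctions, had the largest ratio of the members, 4.44, with 16.3 to 27.1 in the NAc and 2.81 to 6.87 in the PFCx. Mobp (chr9:120149707-120181484) measured 67.3 to 83.7 and 14.9 to 23.3, a ratio of 4.08. Mag (chr7:30899176-30914873) measured 25.0 to 36.1 and 6.79 to 10.1, a ratio of 3.77. Mog (chr17:37010743-37023398) measured 9.44 to 14.9 and 2.62 to 4.95, a ratio of 3.42. Adjusted p in limma was 8.12e-11 for Cldn11, 1.85e-10 for Mobp, 5.23e-11 for Mag and 1.29e-08 for Mog, and the tissues did not overlap in any of these genes. Gjb1, which forms gap junctions through the sheath, was at a ratio of 2.95, and the tetraspanin Tspan2 at 2.32.

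The enzymes of myelin lipids and of metabolism were also higher in the NAc, and the differences named here passed the test. Ugt8a, which makes galactosylceramide, had a ratio of 2.76, and Fa2h, which hydroxylates its fatty acids, 3.18. Aspa, which splits N-acetylaspartate and so releases acetate, had a ratio of 1.76, and Qdpr, which recycles tetrahydrobiopterin and is not particular to oligodendrocytes, 1.66. Opalin, a membrane protein of late oligodendrocytes, had a ratio of 3.19, the protease gene Adamts4 3.26, the cytoskeletal gene Ermn 2.79 and the receptor gene Gpr37 2.49. Ppp1r14a, an inhibitor of myosin phosphatase, was called but close to the limit. It measured 0.106 to 1.44 in the NAc and 0.203 to 0.919 in the PFCx, with a log2 difference of 0.33 ± 0.12 (SE, adjusted p = 0.0389). Its ranges overlapped, and the call was lost on leaving out any of 9 libraries (NAc saline II replicates 1 and 4, NAc saline I replicates 2 and 3, PFCx saline II replicates 1, 2 and 3, PFCx saline I replicates 2 and 4, highest adjusted p = 0.0741). It was also lost with the replicate number as a block (adjusted p = 0.0668), without a term for the saline set (adjusted p = 0.104), with a pseudocount of 0.1 (adjusted p = 0.0918), in saline II alone (adjusted p = 0.676) and with libraries scaled to the same 75th percentile (log2 difference 0.14, adjusted p = 0.396).

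Enpp2 was the exception among the 20 mature genes. It encodes autotaxin, which makes lysophosphatidic acid and is also made by the choroid plexus and by vessel walls. It measured 8.27 to 12.1 with a median of 9.42 in the NAc and 10.4 to 14.2 with a median of 12.5 in the PFCx, so the ranges overlapped. The ratio was 0.768 and the log2 difference -0.35 ± 0.07 (SE, adjusted p = 0.000941). In saline I alone the difference was -0.23 (adjusted p = 0.166). Among markers of the choroid plexus 2 of 5 were higher and 2 lower in the NAc, with a summed FPKM of 2.51 to 4.30 in the NAc and 1.28 to 2.40 in the PFCx, and Ttr, which defines that tissue, was near 0 in both (0.0503 and 0.146). The summed FPKM of 5 mural cell genes was 16.3 to 21.8 in the NAc and 16.3 to 22.3 in the PFCx. The part of these cells in the Enpp2 level was not tested.

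**Figure D2:**
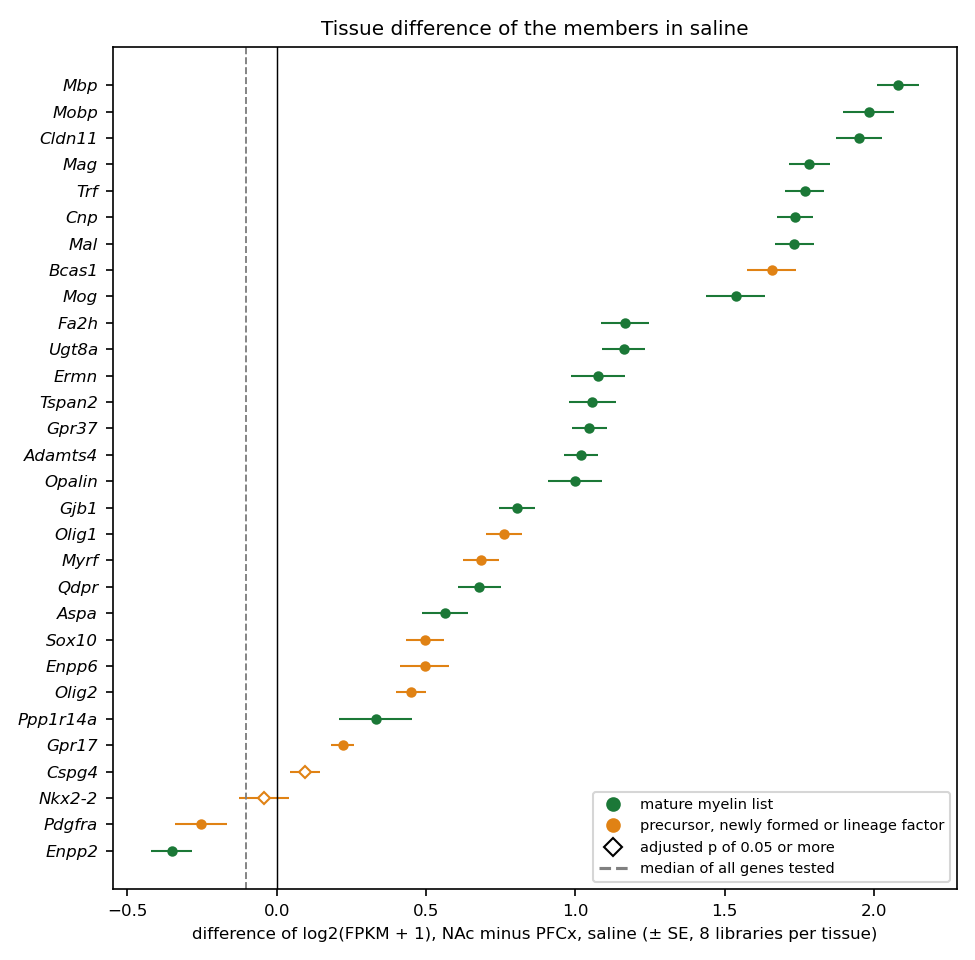
Difference of log2(FPKM + 1) between NAc and PFCx in saline for each member, with its standard error (8 libraries per tissue), coloured by role, open diamonds for the 2 members with an adjusted p of 0.05 or more, and a dashed line at the median of all genes tested (-0.10). Mature myelin genes occupy the right side up to 2.08 for Mbp, and Pdgfra and Enpp2 are the called members left of 0.

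The genes of the early lineage had ratios nearer to 1. Pdgfra (chr5:75152292-75198215) measured 3.52 to 4.51 with a median of 3.96 in the NAc and 3.83 to 7.17 with a median of 4.87 in the PFCx, a ratio of 0.799 (log2 difference -0.25 ± 0.09, SE, adjusted p = 0.0290). The ranges overlapped, and the call was lost on leaving out NAc saline I replicate 4, NAc saline II replicate 4 or PFCx saline I replicate 2 (highest adjusted p = 0.0559). Cspg4 measured 1.42 ± 0.150 in the NAc and 1.27 ± 0.174 in the PFCx (SD, n = 8), a ratio of 1.12 with an adjusted p of 0.131. Pdgfra is also used by fibroblasts of the meninges and vessels. The summed FPKM of 5 fibroblast genes was 2.01 to 4.27 in the NAc and 4.86 to 9.07 in the PFCx, 4 of the 5 were lower in the NAc, and the part of these cells in the Pdgfra difference was not tested.

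Among genes of committed and newly formed cells, Bcas1 followed the mature genes and the others did not reach such ratios. Bcas1, a marker of cells that are starting to myelinate, measured 26.2 ± 5.25 in the NAc and 7.61 ± 1.58 in the PFCx (SD, n = 8), a ratio of 3.44. Gpr17 (chr18:31942997-31949636), a receptor that peaks in committed precursors, measured 3.37 to 4.21 in the NAc and 2.98 to 3.52 in the PFCx, with overlapping ranges and a ratio of 1.22. Its log2 difference was 0.22 ± 0.04 (SE, adjusted p = 0.000332) and turned to -0.12 when libraries were scaled to the same 75th percentile of genes above 0. Enpp6 (chr8:46986887-47096762), a choline phosphodiesterase of newly formed oligodendrocytes, measured 1.26 to 2.44 and 0.673 to 1.45, a ratio of 1.86 (0.50 ± 0.08, SE, adjusted p = 0.000273), again with overlap. Nkx2-2 measured 0.732 in the NAc and 0.793 in the PFCx, with an adjusted p of 0.699.

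The lineage factors other than Nkx2-2 were all higher in the NAc, with a median log2 difference of 0.50 over the 5. Olig1 (chr16:91269772-91271933) measured 5.88 to 8.39 in the NAc and 3.00 to 4.72 in the PFCx, a ratio of 1.87 (0.76 ± 0.06, SE, adjusted p = 1.28e-07). Olig2 (chr16:91225457-91228677) measured 2.12 to 2.91 and 1.14 to 1.72, a ratio of 1.61 (0.45 ± 0.05, SE, adjusted p = 5.61e-06). Sox10 (chr15:79154908-79165240) measured 1.16 to 2.12 and 0.521 to 0.916, a ratio of 1.93 (0.50 ± 0.06, SE, adjusted p = 2.30e-05). Myrf, which precedes myelin gene expression in the lineage, had the largest ratio of the factors, 2.23. None of these 4 genes overlapped between the tissues.

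The sum over the mature genes was 557 to 774 in the NAc and 162 to 216 in the PFCx, a ratio of 3.53. Mbp alone made up 49.5% ± 1.08 of that sum in the NAc and 40.9% ± 2.00 in the PFCx (SD, n = 8), and without Mbp the ratio was 3.01. The sum over the lineage factors had a ratio of 1.77 and the sum over both precursor genes 0.863. The tissue difference had the same sign in saline I and saline II in all 30 members, with 26 called in set I and 25 in set II. These 2 counts are given without the share of all genes called in each set alone. The difference between the sets in the tissue difference passed 0.05 in 0 members with limma (lowest adjusted p = 0.155) and in 3.77% of all genes. Of 36 other genes of oligodendrocytes and their precursors, 28 were higher in the NAc, 3 lower and 5 not called, with a median of 0.62.

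Most single transcripts of the members were not called between the tissues, although most members were called as genes. Of the 125 transcripts 115 passed the filter on low values. Of these 115, 49 were called higher in the NAc, 1, Enpp2-201, was called lower, and the rest were not called. Of all 86331 transcripts tested, 5.36% were higher and 13.9% lower. All 125 have a record in the GENCODE vM21 annotation of GRCm38, 93 of them typed as protein coding, and FPKM of isoforms of 1 gene share reads, so an error of 1 isoform can pass to another. Mbp spans the long Golli isoforms, which start upstream, and the classic myelin isoforms, which start within the gene. The main Mbp transcript, Mbp-211 (ENSMUST00000133193, 5 exons, chr18:82554516-82585627), carried 75.3% of Mbp FPKM in the NAc and 67.0% in the PFCx. It measured 245 ± 42.4 in the NAc and 50.9 ± 7.32 in the PFCx (SD, n = 8), a ratio of 4.81. Mbp-205 (ENSMUST00000091789, 4 exons, chr18:82475146-82558703), which begins at the upstream end of the gene, measured 5.65 ± 0.385 and 4.60 ± 0.316, a ratio of 1.23 (log2 difference 0.25, adjusted p = 0.00207). Mbp-205 made up 1.74% of Mbp FPKM in the NAc, against 6.06% in the PFCx.

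The most abundant transcript of Mobp, Mobp-204, carried 84.8% of its FPKM in the NAc and is typed in GENCODE as a target of nonsense-mediated decay. Cldn11, Olig1, Olig2, Sox10, Gpr17, Ermn, Opalin, Cspg4 and Ppp1r14a each had a single transcript in the tables that carried 100% of the FPKM. Mal-202 carried 97.9%, Mog-201 72.0%, Cnp-201 64.6% and Enpp6-201 46.3% of their genes in the NAc. Mag-203 carried 25.4% and varied widely between libraries (7.44 ± 5.78, SD, n = 8), with a tissue difference that did not pass (adjusted p = 0.0936), while the gene sum did. Pdgfra-201 carried 60.5% of Pdgfra in the NAc and had a ratio of 1.08 (adjusted p = 0.447). No other Pdgfra transcript passed either (lowest adjusted p = 0.0861 in limma), so the lower gene sum in the NAc was not traced to a single transcript. An exon of 13 members overlaps an exon of another gene, and the sources used here do not state whether strand was used in counting.

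The comparison of saline I with saline II gives the background against which the drugs are read, since both sets are labelled as saline. The sources used here do not state whether either set received the HCl that was added for haloperidol and risperidone. In the NAc, 13 members were lower in saline II and 0 higher, while in the PFCx 0 of 30 passed 0.05 with limma and 6 had an unadjusted p under 0.05, as 20.2% of all genes had. Of all genes, 5.49% were lower and 19.2% higher in the NAc, and 4.8% were lower and 4.4% higher in the PFCx. The NAc shares include genes listed at 0 in saline I, and the part of these genes was not tested. In 13 members every NAc library of saline II lay below every library of saline I, which held for 5.71% of all genes. The 13 called genes were Mbp, Mobp, Mog, Mag, Cnp, Cldn11, Mal, Trf, Ppp1r14a, Tspan2, Gpr17, Bcas1 and Qdpr, 11 of them from the mature list. The direction of 12 of the 13 turned when libraries were scaled to the same 75th percentile of genes above 0, which depends on how many genes a library lists above 0. With the percentile taken over genes above 0 in every library, an alternative chosen after seeing the data, 8 of the 30 were called and none turned.

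Cldn11 measured 27.1, 24.4, 26.2 and 26.0 in NAc saline I and 19.0, 16.5, 16.3 and 18.2 in saline II, a ratio of 0.675 (log2 difference -0.54 ± 0.08, SE, adjusted p = 4.99e-05). Cnp measured 62.4, 57.0, 69.4 and 69.3 against 51.4, 52.1, 47.7 and 52.8, a ratio of 0.790 (-0.33 ± 0.06, SE, adjusted p = 0.000207). Mbp measured 355, 333, 376 and 379 against 309, 305, 275 and 266, a ratio of 0.800 (-0.32 ± 0.06, SE, adjusted p = 0.000383). These sets did not overlap in any of the 3 genes. Mal had a ratio of 0.752 (adjusted p = 0.000378) and Mag 0.767 (adjusted p = 0.000409), also without overlap, and the other called members had ratios from 0.434 for Ppp1r14a to 0.864 for Mobp. Leaving out NAc saline I replicate 3 reduced the count from 13 to 8. Among lineage factors and precursor genes 0 were called, and Olig1 and Olig2 had ratios of 0.831 and 0.842.

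The sum over the mature genes was 666 to 774 in NAc saline I and 557 to 610 in saline II, a ratio of 0.799, and 0.974 was the ratio in the PFCx. In the same NAc libraries the ratio of saline II to saline I was 0.548 for the 6 genes of cortical projection neurons, 0.652 for 4 ependymal genes, 0.888 for 8 astrocyte genes, 0.906 for 5 neuron genes and 1.67 for 5 fibroblast genes. The ratio for the 36 other oligodendrocyte genes was 0.876, with 9 called lower and 0 higher. The part of these cell types and of the number of listed genes in the lower myelin genes of saline II was not tested.

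**Figure D3:**
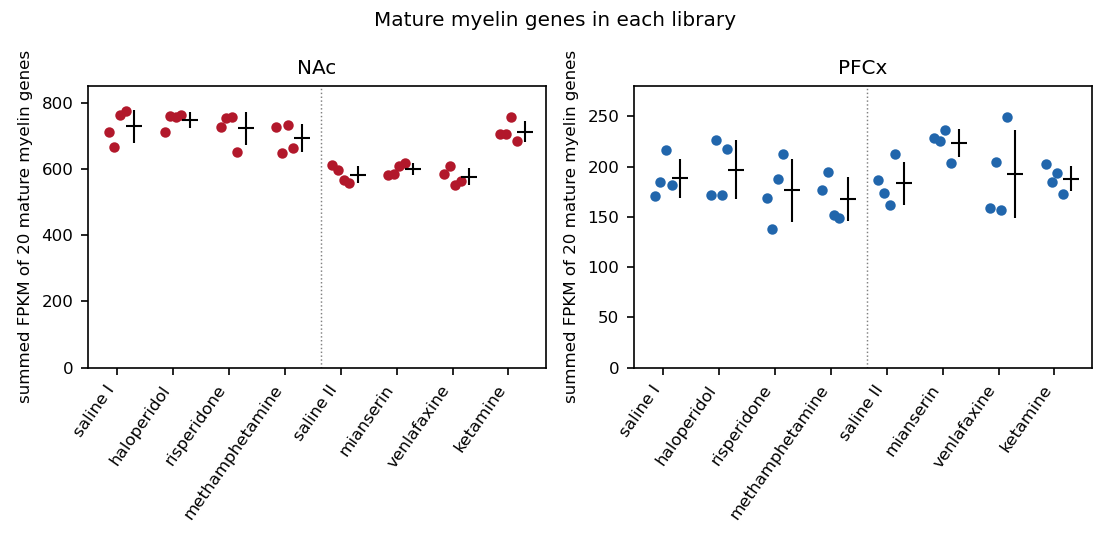
Summed FPKM of the 20 mature myelin genes in each of the 64 libraries, with points for libraries and a tick for the group mean with a vertical bar of 1 SD (n = 4), NAc and PFCx in panels with separate axes, and a dotted line between sample sets I and II. NAc saline I (666 to 774) lies above saline II (557 to 610). This order turned for most called genes under the scaling to the same 75th percentile. NAc ketamine (683 to 758) lies above the saline of its set. The PFCx libraries lie between 138 and 249. There mianserin (203 to 236) overlaps both saline sets and lies above methamphetamine (149 to 195) and ketamine (173 to 202).

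The drug comparisons asked whether myelin or lineage genes responded within 2 h. Against all 8 saline libraries, 7 of 360 combinations of member, drug and tissue passed 0.05, and against the 4 saline libraries of the own set 8 did. These counts pool comparisons with unlike shares of all genes called, such as 1.84% for NAc mianserin and 0.0054% for PFCx venlafaxine against all saline. They are therefore read by drug and tissue, with the share of all genes beside each. The NAc shares include genes listed at 0 in the libraries of sample set I. Against all 8 saline libraries, the lineage factor Olig2 was called higher in the NAc after risperidone and mianserin, and Mobp and Ermn after ketamine. Gpr17 was called lower after mianserin in both tissues, and Sox10 in the NAc. Against the saline of the own set, only the calls of Olig2 after mianserin and of Mobp after ketamine were kept. The NAc difference of Gpr17 after mianserin also changed sign under another scaling of the libraries. Haloperidol, methamphetamine and venlafaxine moved 0 members past 0.05 with limma in either tissue. For these drugs 8, 1 and 14 members had an unadjusted p under 0.05 in the NAc, when 17.1%, 13.3% and 21.6% of all genes did, while 2, 3 and 0 did in the PFCx, when 13.8%, 8.88% and 7.16% of all genes did. After adjustment 0.721%, 0.194% and 1.83% of all genes were called in the NAc, against 0.162%, 0.351% and 0.0054% in the PFCx. Risperidone and ketamine also moved 0 members in the PFCx, where 5 and 2 had an unadjusted p under 0.05 (14.5% and 8.14% of all genes) and 0.51% and 0.0162% of all genes were called.

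**Figure D4:**
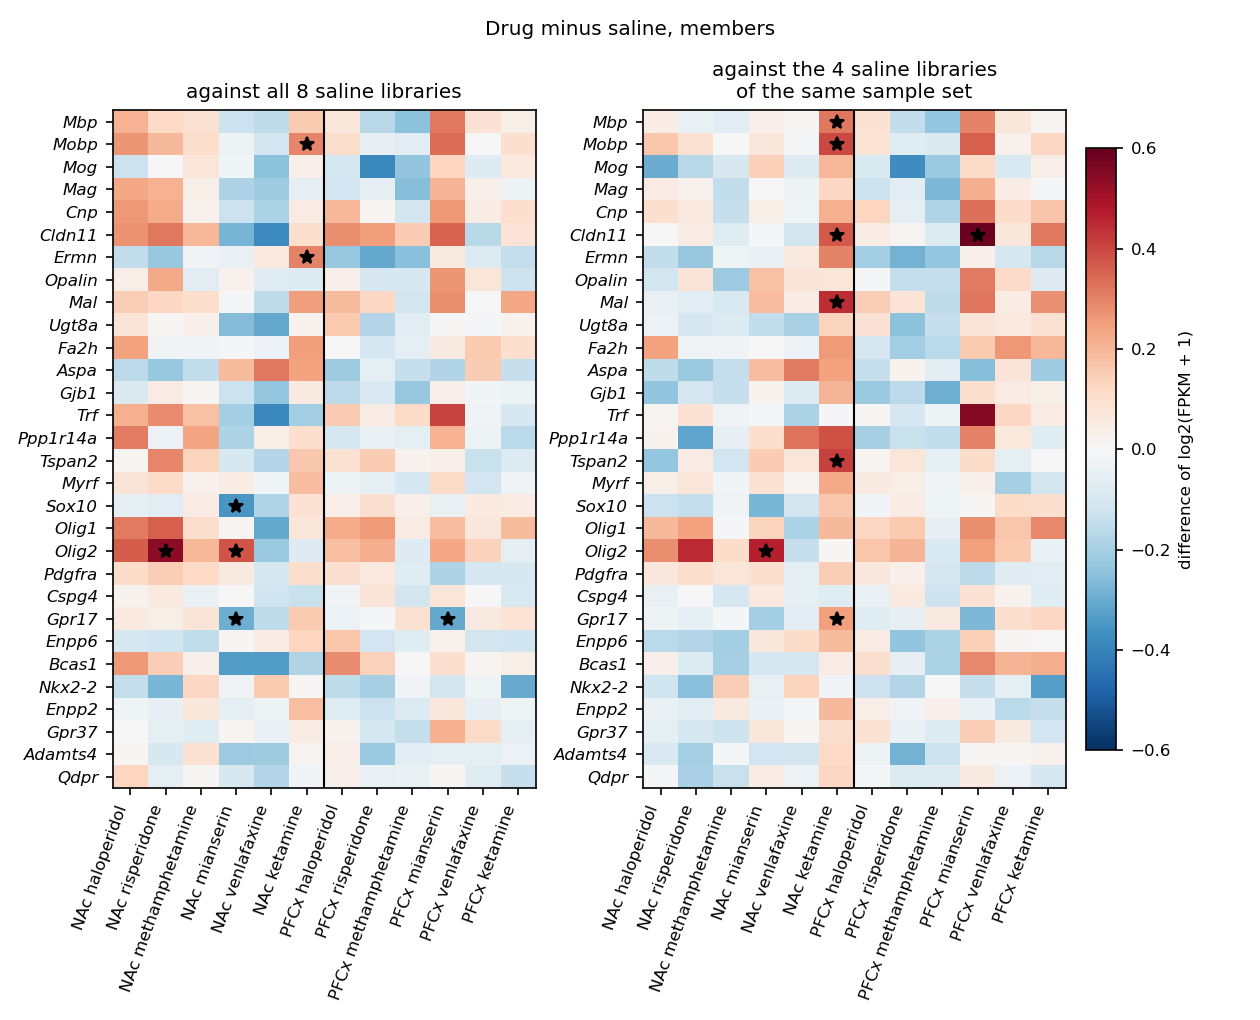
Colour map of the difference of log2(FPKM + 1) between each drug and saline for the 30 members (rows) in 12 combinations of tissue and drug (columns), against all 8 saline libraries on the left and against the 4 of the own set on the right, with a star where the adjusted p was under 0.05. Olig2 under NAc risperidone (0.54 on the left, 0.45 on the right) and Gpr17 under mianserin (-0.29 in the NAc, which turned under the scaling to the same 75th percentile, and -0.31 in the PFCx on the left) stand out, and NAc ketamine is higher for Mal on the right (0.44) than on the left (0.25).

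Olig2 had the lowest adjusted p for a drug effect among the members. In the NAc its F statistic over the 6 drugs had an adjusted p of 4.20e-05 in limma, and no other member was under 0.0001, a level that 0.815% of all genes passed. The call was lost on leaving out risperidone replicate 1, 2 or 3 or venlafaxine replicate 1, 2 or 3. NAc saline libraries lay between 2.12 and 2.91 with a median of 2.44. Risperidone libraries measured 3.83, 4.84, 3.85 and 3.42, all above the highest saline library, with a ratio of 1.64 and a log2 difference of 0.54 ± 0.09 (SE, adjusted p = 0.00174). Among all genes 0.446% were higher after risperidone. Against saline I the difference was 0.45 ± 0.10 (SE, adjusted p = 0.0584). When libraries were scaled to the same 75th percentile of genes above 0, it was 0.13 against all saline (adjusted p = 0.398).

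Mianserin libraries measured 3.20, 3.90, 3.41 and 3.30 for Olig2 in the NAc, again all above saline, with a ratio of 1.42 and a log2 difference of 0.38 ± 0.09 (SE, adjusted p = 0.0309). Among all genes 1.43% were higher after mianserin. Against saline II the difference was 0.47 (adjusted p = 0.0350), when 0.17% of all genes were higher, and in a fit with saline II as the control of every drug the adjusted p was 0.0610. Against all saline the call was lost on leaving out mianserin replicate 2, 3 or 4 (highest adjusted p = 0.0872). Haloperidol libraries measured 3.18, 4.00, 3.83 and 2.72, of which the lowest lay inside the saline range, with a log2 difference of 0.36 and an adjusted p of 0.0538. Methamphetamine libraries lay between 2.52 and 3.17, ketamine between 1.54 and 2.56 and venlafaxine between 1.65 and 2.23, each overlapping saline. In the PFCx, Olig2 lay between 1.14 and 1.72 in saline, and no drug passed the threshold there, with risperidone at 1.87 to 2.04. Olig1, its neighbour on chr16, was not called for any drug.

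**Figure D5:**
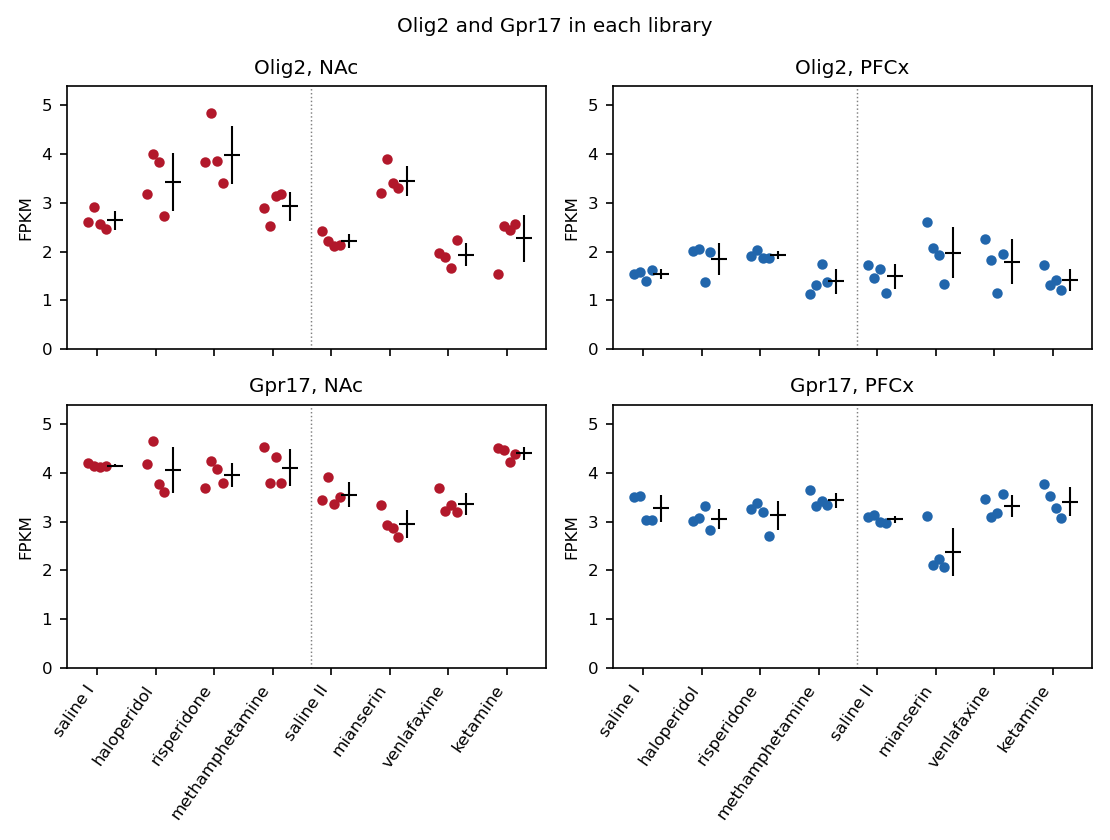
FPKM of Olig2 and Gpr17 in every library by treatment, with points for libraries and a tick for the group mean with a vertical bar of 1 SD (n = 4), NAc on the left, PFCx on the right and a dotted line between sample sets I and II. NAc Olig2 is at 3.42 to 4.84 after risperidone against 2.12 to 2.91 in saline, and the mean of Gpr17 is lowest after mianserin in both tissues, a direction that turned in the NAc when libraries were scaled to the same 75th percentile.

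Gpr17 was lower after mianserin against all saline. In the NAc the mianserin libraries measured 3.35, 2.93, 2.87 and 2.68, all below the lowest saline library (3.37), with a ratio of 0.767 and a log2 difference of -0.29 ± 0.06 (SE, adjusted p = 0.0113). Among all genes 0.41% were lower after mianserin in the NAc. The highest mianserin library and the lowest saline library differed by little, the call was lost on leaving out mianserin replicate 4 (adjusted p = 0.0640), and against saline II the difference was -0.21 (adjusted p = 0.224). It turned to 0.11 when libraries were scaled to the same 75th percentile of genes above 0. In the PFCx the mianserin libraries measured 3.11, 2.12, 2.23 and 2.07 against 2.98 to 3.52 in saline, with a ratio of 0.753 and a log2 difference of -0.31 ± 0.06 (SE, adjusted p = 0.0145). There 3 of the 4 lay below saline and replicate 1 lay within it. Among all genes 0.324% were lower, the call was lost on leaving out mianserin replicate 2, 3 or 4 (highest adjusted p = 0.107), and against saline II it was -0.27 (adjusted p = 0.0539). An exon of Lims2 on the opposite strand overlaps Gpr17, and Lims2 measured 1.94 ± 0.0939 after mianserin (SD, n = 4) and 1.75 ± 0.279 in saline (SD, n = 8) in the NAc.

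Mianserin also lowered Sox10 in the NAc against all saline. Its libraries measured 0.778, 0.826, 1.12 and 1.36 against 1.16 to 2.12 in saline, with a ratio of 0.651 and a log2 difference of -0.35 ± 0.09 (SE, adjusted p = 0.0450). The groups overlapped in 1 mianserin library, and against saline II the difference was -0.28 (adjusted p = 0.420). The call was lost on leaving out any of 18 of the 32 libraries, namely haloperidol 1 to 4, ketamine 2 or 4, methamphetamine 2 or 4, mianserin 1, 2 or 3, risperidone 1, 2 or 3, or saline I 1 to 4 (highest adjusted p = 0.118). With libraries scaled to the same 75th percentile the Sox10 difference was -0.07 (adjusted p = 0.659). Of the NAc calls for mianserin, that of Olig2 was also made against the saline of the own set, and those of Gpr17 and Sox10 were not. The mature genes had a median log2 difference of -0.10 after mianserin against all saline and 0.03 against saline II.

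Mobp and Ermn were higher in the NAc after ketamine against all saline. Mobp measured 89.7, 89.9, 96.4 and 83.4 against 67.3 to 83.7 in saline, where 1 ketamine library lay inside the saline range, with a ratio of 1.22 and a log2 difference of 0.29 ± 0.07 (SE, adjusted p = 0.0240). Ermn measured 5.89, 4.98, 6.35 and 4.92, all above the 3.70 to 4.75 of saline, with a ratio of 1.28 and a log2 difference of 0.30 ± 0.08 (SE, adjusted p = 0.0443). Among all genes 1.43% were higher after ketamine. The Mobp call was lost without ketamine replicate 2 or 3 (highest adjusted p = 0.0946). The Ermn call was lost on leaving out any of 12 libraries, namely haloperidol 1, ketamine 1 or 3, methamphetamine 1, 2 or 3, risperidone 2 or 4, or saline I 1 to 4 (highest adjusted p = 0.167). Against saline II, Ermn had a difference of 0.30 with an adjusted p of 0.149. An exon of Galnt5 on the opposite strand overlaps Ermn. In the NAc, Galnt5 measured 0.383 to 0.487 after ketamine and 0.132 to 0.333 in saline, without overlap. The part of reads shared with Galnt5 in the Ermn difference was not tested.

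Against the saline of its own set, ketamine raised 6 members in the NAc, when 0.348% of all genes were higher. Mal measured 26.1, 26.3, 28.5 and 24.7 against 18.3 to 20.05 in saline II, a log2 difference of 0.44 (adjusted p = 0.000343). Mobp lay at 83.4 to 96.4 against 67.3 to 69.7 (0.39, adjusted p = 0.000680), and Mbp at 346 to 373 against 266 to 309 (0.32, adjusted p = 0.00264). Cldn11 lay at 20.2 to 26.8 against 16.3 to 19.0 (0.37), Tspan2 at 13.1 to 15.6 against 9.31 to 11.0 (0.41), and Gpr17 at 4.23 to 4.52 against 3.37 to 3.92 (0.25), with adjusted p of 0.0189, 0.0466 and 0.0484. In 10 of the 30 members, these 6 among them, every ketamine library lay above every saline II library, which held for 3.86% of all genes. The ketamine libraries overlapped saline I in 5 of the 6 genes, all but Gpr17, whose saline I libraries lay at 4.13 to 4.21. The sum over the mature genes was 683 to 758 after ketamine, 557 to 610 in saline II and 666 to 774 in saline I, and mianserin (583 to 618) and venlafaxine (553 to 608) lay near saline II. In the same comparison the summed FPKM of the 6 genes of cortical projection neurons was 42.0 to 72.7 after ketamine and 20.9 to 43.1 in saline II, with 0 of 6 called. The sum over 5 neuron genes was 493 to 567 against 435 to 500 with 0 of 5 called, that over 8 astrocyte genes 352 to 388 against 319 to 357 with 1 of 8 called, and that over 7 genes that mark the NAc 291 to 417 against 346 to 471 with 0 of 7 called. The part of these cell types in the ketamine difference was not tested. The sum after haloperidol was 711 to 763, after risperidone 652 to 758 and after methamphetamine 649 to 734, overlapping saline I.

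In the PFCx, Cldn11 after mianserin lay at 5.79 to 7.56, with no overlap, against 2.81 to 4.83 in saline II, a log2 difference of 0.59 (adjusted p = 0.0457), when 0.54% of all genes were higher. In a fit with saline II as the control of every drug the adjusted p was 0.0608. Against all 8 saline libraries, which reached 6.87, the difference was 0.35 (adjusted p = 0.450). The sum over the mature genes in the PFCx was 203 to 236 after mianserin. It was 171 to 216 in saline I and 162 to 212 in saline II, so the ranges overlapped.

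Some transcripts were called where the sum of their gene was not. Mbp-205 rose in the PFCx after methamphetamine, with libraries at 6.32 to 6.89 against 4.06 to 5.01 in saline and no overlap. Its log2 difference was 0.43 ± 0.06 (SE, adjusted p = 0.000142, and 0.00226 against saline I), when 0.0892% of all transcripts were higher. Risperidone libraries for the same transcript lay at 5.50 to 6.16, also above saline (0.26 ± 0.06, SE, adjusted p = 0.0419, and 0.202 against saline I), when 0.0903% were higher. The Mbp gene sum and Mbp-211 were not called in either comparison. Mobp-201 (ENSMUST00000068698) lay at 5.61 to 7.34 in the NAc after haloperidol against 3.15 to 3.86 in saline (0.64 ± 0.11, SE, adjusted p = 0.00898, and 0.0577 against saline I), when 0.148% of all transcripts were higher. Olig2-201 and Gpr17-201, the only transcripts of their genes, were called as the genes were, when 0.0985% of all transcripts were higher after risperidone in the NAc and 0.167% (NAc) and 0.174% (PFCx) were lower after mianserin. Against saline II, Mal-202, Mobp-204 and Tspan2-201 were higher after ketamine in the NAc, when 0.095% of all transcripts were. Against the saline of the own set in the PFCx, Mbp-209 was lower after methamphetamine and a minor Pdgfra transcript (ENSMUST00000202161) after mianserin. Of all transcripts, 0.00811% and 0.67% were lower in these comparisons. Mbp-209 measured 0.197 ± 0.378 after methamphetamine and 3.91 ± 1.02 in saline I (SD, n = 4). Over all 8 saline libraries it measured 1.96 ± 2.19 (SD). Against all saline neither was called (adjusted p = 0.718 for Mbp-209 and 0.607 for the Pdgfra transcript in limma), and both were near 0 in some saline libraries.

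A drug effect that differed between the tissues was not called for any member under 0.001 (1.01% of all genes were). Under 0.05 there were 4 members, Mag (adjusted p = 0.00720), Mbp (0.0155), Olig2 (0.0167) and Cnp (0.0404), against 12.9% of all genes. With each drug set against the saline of its own set, 0 of 30 members passed 0.05 with limma, when 0.759% of all genes did, and 2 had an unadjusted p under 0.05, when 8.56% of all genes had. In the NAc, 17 members passed 0.05 in the F test over the 6 drugs, when 36.9% of all genes did, a share that includes genes listed at 0 in sample set I. In the PFCx 1 did, Gpr17 (adjusted p = 0.0112), when 3.34% of all genes did. Against the saline of the own set these counts were 7 and 1, when 1.63% and 1.45% of all genes passed. In the PFCx 0 members passed 0.0001, when 0.13% of all genes did, and 6 had an unadjusted p under 0.05, when 16.7% of all genes had.

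Mature myelin genes were often highest in the same library of a group. Within each of 16 groups of 4 libraries, the library with the highest sum over the mature genes was also the highest for 174 of 320 single mature genes (54.4%), each of which is part of that sum. It was the highest for 29.4% of the other 10 members and on average for 25.1% of all genes. The ratio of the highest to the lowest library of a group was 1.06 to 1.16 in the NAc and 1.16 to 1.59 in the PFCx. The PFCx differences between drug and saline were thus read against a larger spread of myelin genes.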

How the data were processed

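RNA of both tissues was depleted of ribosomal RNA and sequenced on an Ion Torrent instrument. Per the authors, reads were aligned with TopHat 2.0.1 followed by Tmap, and Cufflinks 2.2.1 with an Ensembl annotation of mm10 gave the deposited FPKM of each transcript, scaled to the mapped fragments of a library. The deposited coverage (reads per base, an unscaled signal) served only to estimate depth, from transcripts of at least 2000 bases and an FPKM of at least 5, since the tables hold no read counts. How multi-mapping reads were treated is not given in the sources used here.

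FPKM were summed per gene, and 37034 genes and 86331 transcripts whose mean FPKM reached 0.1 in 1 of the tissues or both were tested as log2(FPKM + 1), a scale that understates changes of low genes, with limma 3.58.1 in R 4.3.3 and Benjamini-Hochberg adjustment over all of them. Groups came from the labels, except that the saline set of each drug was read from the number of transcripts above 0 in its NAc libraries. The tissue difference used the 16 saline libraries with a term for the saline set, each drug was compared with saline in a fit of the 32 libraries of a tissue, and the F tests over drugs and over drug by tissue used the thresholds 0.0001 and 0.001. All other calls used 0.05. Nothing in the labels says which libraries of a group came from separate mice, so p-values measure the spread between these libraries. No libraries were duplicates. The fits were tested on simulated data with known changes.

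All 30 members could be named, 13 of them always with their ranges, and in a comparison with over 8 calls the 4 with the lowest p. The members, lists and tests were chosen with earlier results of these data known. Marker lists covered astrocytes, microglia, endothelial, mural, fibroblast, choroid plexus, ependymal and neuronal cells and both tissues. In saline, 2 of 8 astrocyte genes were higher in the NAc and 3 lower, 3 of 8 microglial genes were higher, 2 of 6 endothelial genes were higher and 1 lower, 1 of 5 mural genes was higher and 2 lower, 2 of 4 ependymal genes were higher, and 1 of 5 neuronal genes was higher and 4 lower. Alternatives covered the pseudocount, filters, scaling, the control libraries, a replicate block and leaving out each library. Promoters and annotation came from RefSeq and GENCODE vM21.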

Additional observations from a re-analysis of the deposited data

Results flagged for a closer look

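Of 81 groups of 4 libraries examined for a library that stood apart from the others, 4 had one, and chance alone gives about 1 in 20. In the PFCx after mianserin, replicate 1 had the highest Gpr17 level (3.11), while the others lay at 2.07 to 2.23. In NAc saline I, replicate 1 had the highest Gpr17 level (4.21) beside 3 libraries at 4.13 to 4.14, a gap that is wide only because the others lay so close together. In PFCx saline I, replicate 3 had the highest Cldn11 level (6.87), while the others lay at 5.31 to 5.56. In the NAc after haloperidol, replicate 1 had the lowest sum over the mature myelin genes (711), while the others lay at 758 to 763.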

How the results depend on the processing

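FPKM tables without read counts limit the precision of low members such as Ppp1r14a and Nkx2-2, and no interval can be given for single libraries. Called directions turned under 1 scaling. When each library was scaled to the same 75th percentile of its genes above 0, the tissue difference of Cspg4 became -0.15 and that of Gpr17 -0.12, Gpr17 in the NAc after mianserin became 0.11, and saline II minus saline I in the NAc became 0.73 for Mbp, 0.84 for Mobp, 0.63 for Mog, 0.66 for Mag, 0.71 for Cnp, 0.47 for Cldn11, 0.62 for Mal, 0.64 for Trf, 0.48 for Tspan2, 0.65 for Gpr17, 0.56 for Bcas1 and 0.73 for Qdpr. Under that scaling 5 members were lower in the NAc than in the PFCx (59.5% of all genes), 0 were called in the NAc after risperidone (0% of all genes), 16 after mianserin (27.5%), 15 after venlafaxine (33.9%) and 23 after ketamine (22.4%), 23 in the F test over drugs (27.3%), 29 between the saline sets in the NAc (76.7%) and 12 for a drug effect that differed between tissues (27.4%). With the percentile over genes above 0 in every library, an alternative chosen after seeing the data, 1 member was lower in the NAc tissue comparison, and the NAc counts were 2 for risperidone, 1 for venlafaxine, 1 for ketamine and 8 between the saline sets (26.8% of all genes). Under the other alternatives no difference turned that was called in either setting. Among differences called in neither, 4 changed sign, namely Nkx2-2 between tissues without PFCx saline II replicate 1, and NAc ketamine with saline I as the control for Mbp (-0.0042), Cldn11 (-0.18) and Tspan2 (-0.09).

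The choice of control changed the NAc counts of members called, given here with the share of all genes called. With saline I as the control they were 0 for risperidone (0.186% of all genes), 13 for mianserin (29.7%), 18 for venlafaxine (31.5%) and 6 for ketamine (28%). With saline II they were 13 for haloperidol (28%), 12 for risperidone (26.6%), 8 for methamphetamine (22.7%), 0 for mianserin (0.262%) and 6 for ketamine (0.972%), and in the PFCx 3 for haloperidol (11.9%), 1 for risperidone (12.4%) and 0 for mianserin (1.88%). With the saline of the own set they were 0 for risperidone (0.213%), 1 for mianserin (0.273%), 6 for ketamine (0.967%) and 0 in the F test (0.327%). In saline I alone 1 member was lower in the NAc than in the PFCx, and in saline II alone also 1. Other settings changed fewer counts. A pseudocount of 0.1 left 0 for NAc ketamine, no filter gave 1 for NAc venlafaxine, and so did a mean-variance trend (1). A mean FPKM of at least 1 gave 2 for NAc haloperidol, 2 for NAc risperidone and 1 between the PFCx saline sets. Restricting the sums to transcripts above 0 in every saline group gave 2 for NAc haloperidol, 2 for NAc risperidone and 1 for NAc ketamine. The counts of these other settings and of each saline set alone stand without a share of all genes. They are not read as results about the members. A threshold of 0.05 in the F test gave 17 NAc members and 1 PFCx member. The NAc to PFCx ratio of the sum over the mature genes was 3.53, became 3.01 without Mbp and 2.17 when taken from the median log2 difference of the genes. The cause of these changes was not tested.

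Leaving out 1 library at a time gave 25 to 26 members higher and 1 to 2 lower in the tissue comparison. Of all genes, 2999 to 3306 were then higher and 11861 to 13183 lower. Between the saline sets 8 to 15 members were called in the NAc and 0 to 1 in the PFCx, where the 1 appeared without risperidone replicate 2 or 4 or saline II replicate 4. Over all genes these ranges were 7337 to 9381 and 2416 to 3539. In the NAc the ranges were 0 to 3 for haloperidol (3 without saline I replicate 3), 1 to 2 for risperidone, 0 to 0 for methamphetamine, 1 to 4 for mianserin (1 without mianserin replicate 2, 3 or 4), 0 to 5 for venlafaxine (5 without saline II replicate 3), 0 to 2 for ketamine (0 without ketamine replicate 3) and 0 to 1 in the F test. The number of all genes called also varied. It was 164 to 482 for haloperidol, 132 to 462 for risperidone and 36 to 112 for methamphetamine. For mianserin it was 262 to 1810, for venlafaxine 29 to 2237, for ketamine 224 to 1530 and in the F test 129 to 492. In the PFCx the range was 0 to 1 for mianserin and 0 to 0 for the other drugs and the F test, and it was 0 to 0 for the difference between tissues.

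The labels number the libraries of each group from 1 to 4, but deviations of same-numbered libraries from their group means correlated on average at 0.0598 in the NAc, 0.0704 in the PFCx and 0.00795 between the tissues, with 3 of 32 pairs between the tissues over 0.1. Within a sample set the mean was 0.109 in the NAc, with 23 of 48 pairs over 0.1, and 0.164 in the PFCx, with 30 of 48, against -0.0361 and -0.0524 for other numbers. Since not every pair was over 0.1 and no label ties the numbers to mice or days, the numbers were not taken to pair the samples. Within a sample set 28 of 32 NAc and 27 of 32 PFCx libraries correlated best with libraries of their own number. This pattern is in the data and not in the labels, and the main fits held no term for it. With the replicate block 25 members were higher and 2 lower between the tissues, with Ppp1r14a lost (adjusted p = 0.0668), and 2 were called for NAc mianserin, with Sox10 lost (adjusted p = 0.0596). The other counts of calls were as without the block. This block joined equal numbers across both sample sets in the drug fits and across the tissues in the tissue fit. It therefore cannot show what a block within a set and tissue would change. With a replicate block within each sample set and the saline of the own set, the counts were 0 for NAc risperidone, 1 for NAc mianserin, 6 for NAc ketamine and 2 for PFCx mianserin.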
